A study of Saccharomyces cerevisiae with 13 samples.

Results

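The long transcript models were the 366 models, of 4280 in all, whose measured region held 3000 bases or more. The region of a model begins after the first 200 bp from the transcription start site (TSS) and runs to the end of the transcript. The length of the region alone chose the members, without any read. The long models made up 8.55% of all models and 23.8% of their bases, with a median region of 3733 bases and a maximum of 14813 bases. A total of 146 regions held 4000 bases or more and 33 held 6000 bases or more. The 982 models with a region of 1000 to 1500 bases (median 1228 bases) served for comparison.

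The study followed RNA synthesis and RNA abundance in *S. cerevisiae* strain BY4742, a haploid laboratory strain grown in rich glucose medium. Nuclear run-on (NRO) libraries came from run-on RNA, which carries biotin-UTP taken up by permeabilized cells and was captured with streptavidin, and total RNA libraries came from an aliquot of it that was not captured, so that every library came from cells that had gone through the labelling. The groups NRO and total RNA came from log growth at 30°, and the groups NRO (HS) and total RNA (HS) from log phase cultures kept for 20 min at 39°, with 3 libraries in each group by the labels, built from independent cultures by the study's methods. The deposited values are pooled by the authors over the 3 libraries of a group, so that each model has 1 value per group, no spread between cultures can be had, and no comparison below has a replicate check or a p-value.

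In a run-on assay, polymerases already engaged on the DNA extend their transcripts for a short time in the presence of a labelled nucleotide, and the labelled RNA is taken as a measure of ongoing synthesis. Total RNA reflects synthesis and decay together, so a high ratio of NRO to total RNA is often read as a sign of a short-lived transcript. Long genes of yeast encode, among others, the motor proteins, membrane transporters, large multifunctional enzymes, chromatin remodelers and scaffolds of ribosome assembly. Heat shock induces chaperones and trehalose and glycogen metabolism through the factors Hsf1 and Msn2/4, and lowers RNAs for ribosome assembly and translation.

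Short stretches upstream of 5 long genes are shown first, picked after the matches were seen, as examples of known regulatory elements upstream of genes with large changes in total RNA after heat shock, upward in TSL1, YMR196W and GDB1 and downward in REA1 and KAP123. Capitals mark the stress response element bound by Msn2/4 (AGGGG, or CCCCT on the other strand), the heat shock element bound by Hsf1 (GAA, TTC and GAA, each 2 bases from the next), and the PAC (GCGATGAG) and RRPE (AAAAATTT) elements found upstream of many genes for ribosome assembly. The windows of 30 bases are from the RefSeq R64 assembly, with R64 coordinates, and are written 5′ to 3′ on the strand of the gene.
TSL1, stress response element, chrXIII:70234-70263, plus strand: gttcagggtaaaAGGGGcgaaacagagggc
TSL1, heat shock element, chrXIII:70262-70291, plus strand: gccagataGAAATTTCGAGAAaagcgggtc
TSL1, stress response element, chrXIII:70381-70410, plus strand: agggagataggaAGGGGcgggggtccgggc
YMR196W, stress response element, chrXIII:654720-654749, plus strand: tgtctccgaatgCCCCTatttgttgtatcc
YMR196W, stress response element, chrXIII:654828-654857, plus strand: agatcaaaaataAGGGGtaaaacatcatct
GDB1, stress response element, chrXVI:901840-901869, plus strand: caacagcagcaaCCCCTtgaaatggccaat
REA1, PAC, chrXII:363927-363956, minus strand: attttaaagaaGCGATGAGctaaggtctat
REA1, RRPE, chrXII:363942-363971, minus strand: tttttcgagtgAAAAATTTtaaagaagcga
KAP123, PAC, chrV:382322-382351, minus strand: gaatggaaagcGCGATGAGatgaggtcgaa

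TSL1 held 5 stress response elements and 1 heat shock element in the 500 bases upstream of its start codon. Other genes with large changes held elements of the other kind or none: FAS1, which was lower, held 1 stress response element and neither PAC nor RRPE, SPF1, also lower, held none of the 4 elements, and among the higher genes AVO1 held PAC and RRPE beside 1 stress response element and PSD2 held 2 matches to RRPE beside 1. Each of these is a match of letters, not a measured binding site.

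The whole data set was shallow. The bases acquired correspond to 2491144 reads in NRO, 894262 in total RNA, 378273 in NRO (HS) and 656630 in total RNA (HS), estimated from the deposited depth. A long model held a median of 237, 60.4, 23 and 32.0 reads in these libraries, in the same order, and a model of 1000 to 1500 bases held 65.5, 21, 8 and 12. Long models were therefore measured with less counting error than shorter ones, in particular after heat shock. All 366 were found by systematic name in R64, 355 were mappable over every base, and 3 had intronic bases. The region was under 90% mappable in HKR1 and FLO10, which encode cell surface proteins with internal repeats. Of the 366, 320 were above 0 in all 4 libraries and 2 were at 0 in all 4. In NRO (HS), the shallowest library, 40 long models (10.9%) were at 0, against 308 (31.4%) of the shorter models. These 40 had a median of 21.2 reads in NRO, which corresponds to 3.22 reads in NRO (HS) without any change, so a 0 there says little about synthesis.

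The level of a model was taken as its read density, the mean depth per mappable base relative to all bases that a library acquired. The long models had a median read density of 0.0234 in NRO, 0.0165 in total RNA, 0.0143 in NRO (HS) and 0.0114 in total RNA (HS), with models at 0 included. In the models of 1000 to 1500 bases the medians were 0.0217, 0.0201, 0.0172 and 0.0145. The long models thus stood at 1.08 times the shorter models in NRO, and at 0.819, 0.830 and 0.784 times in the other libraries, in that order. NRO was the library in which their level was not below that of the shorter models. Long models held 17.1% of the reads of all models in NRO, 13.3% in total RNA, 11.4% in NRO (HS) and 10.7% in total RNA (HS).

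A few very active genes carried much of that signal. PMA1, the plasma membrane proton pump, had the highest NRO read density of the long models, at 4.10, beside 2.12 in total RNA, 1.19 in NRO (HS) and 0.895 in total RNA (HS). It alone held 12.3% of the NRO reads of the long models. Without PMA1, the long models held 15.3% of all model reads in NRO and 10.8% in NRO (HS), so the share was still lower after heat shock. YEF3, a fungal translation elongation factor, followed with read densities of 2.40 in NRO, 2.34 in total RNA, 0.908 in NRO (HS) and 1.06 in total RNA (HS). EGT2, a cell wall protein of mother and daughter cell separation, had 0.986, 0.216, 0.375 and 0.141 in the same order. PFK2, the beta subunit of phosphofructokinase, had 0.807, 0.589, 0.554 and 0.623, and PDR5, a multidrug transporter, had 0.737, 0.446, 0.313 and 0.323. Of these 5 genes, NRO (HS) was below NRO in each, and total RNA (HS) was below total RNA in all but PFK2.

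The 5 longest models spanned a wide range of levels. REA1, also called MDN1, is the AAA ATPase that remodels precursors of the large ribosomal subunit and had the longest region, 14813 bases on chromosome XII from 348856 to 363668 in the sacCer2 coordinates of the deposited values. Its read density was 0.125 in NRO, 0.173 in total RNA, 0.0696 in NRO (HS) and 0.0322 in total RNA (HS). DYN1, the heavy chain of cytoplasmic dynein, had 12349 bases and was among the low ones, with 0.00348, 0.00395, 0.00450 and 0.00284 in the same order. TRA1, the subunit of the SAGA and NuA4 complexes that activators contact, had 0.0218, 0.0202, 0.00637 and 0.00835. TOM1, a ubiquitin ligase, had 0.0319, 0.0270, 0.0275 and 0.0152, and VPS13, a lipid transfer protein of membrane contact sites, had 0.0262, 0.0338, 0.0307 and 0.0460. REA1, DYN1 and TOM1 each had their own lowest value in total RNA (HS), and TRA1 had its own in NRO (HS). VPS13 had its own highest value in total RNA (HS).

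**Figure D1:**
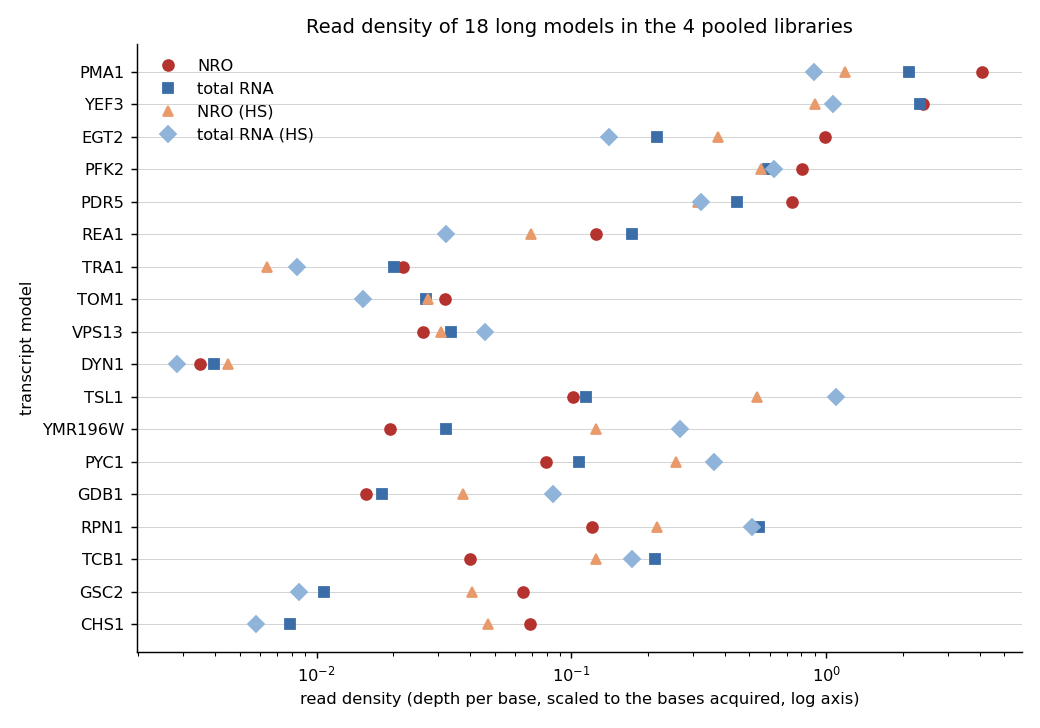
Read density (log axis, mean depth per base, scaled to the bases acquired) of 18 long models in the 4 pooled libraries, 1 symbol per library and no error bars because each value is pooled. PMA1 reaches 4.10 in NRO while DYN1 stays at 0.00348, and TSL1 moves from 0.114 in total RNA to 1.09 in total RNA (HS).

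In log growth, long models leaned towards NRO. The median of log2(NRO / total RNA) was 0.42 over the 353 long models above 0 in both libraries, against -0.14 over 788 models of 1000 to 1500 bases and -0.01 over all 3400 models with a ratio. The long models were thus 1.47-fold above the shorter ones in this ratio, a difference of 0.56 on the log2 scale that was described and not tested. A ratio of 2-fold or more was reached by 112 long models (31.7%), where 21.8% of all models reached it, and 25 long models (7.08%) were 2-fold or more below 1, where 19.0% of all models were. The middle of the long models was also narrower, with 10th and 90th percentiles of -0.74 and 1.79 against -1.63 and 1.52 in the shorter models. Long models held more reads, a median of 237 in NRO and 60.4 in total RNA against 65.5 and 21. The part of counting error in the spread and in the 2-fold shares was not tested. With depth summed over each class, so that abundant genes weigh most, the difference was 0.37, and among models with 10 or more reads in both libraries it was 0.62. With a pseudocount of 0.01 and all models, the difference was 0.21, the median of the long models 0.20 and their share at 2-fold or more 10.9%.

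The median ratio was higher in the classes above 1500 bases than in those below. The median ratio was -0.20 below 500 bases, -0.39 from 500 to 1000, -0.14 from 1000 to 1500, 0.10 from 1500 to 2000 and 0.32 from 2000 to 3000. Within the long models it was 0.33 from 3000 to 4000 bases, 0.54 from 4000 to 6000 and 0.55 from 6000 bases on. The coding sequences of long models held a median of 28.5% T, against 27.4% in the shorter models, which is the base that biotin-UTP labels in RNA, and the part of base composition in the ratio was not tested. Across the 353 long models, the log2 read densities of NRO and total RNA had a Pearson r of 0.88 as a description across genes, and genes are not independent replicates.

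**Figure D2:**
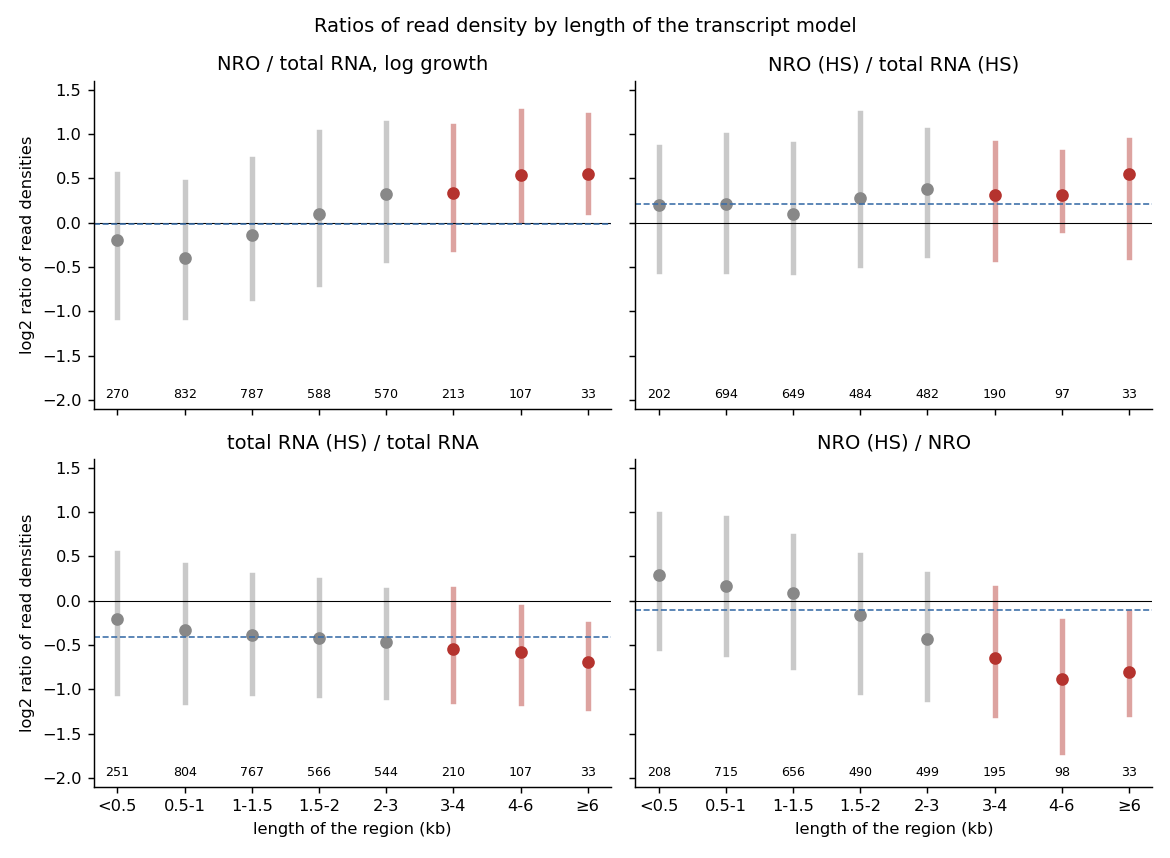
Median (points) and middle quartiles (bars) of the 4 log2 ratios by length of the region in kb, long models in red, with the number of models above the axis and the median of all models as a dashed line. The log growth ratio is lowest, at -0.39, from 0.5 to 1 kb and reaches 0.55 in the longest class, and the ratio NRO (HS) / NRO is highest, at 0.29, in the shortest class and lowest, at -0.89, from 4 to 6 kb.

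The highest ratios in log growth belonged to genes with little total RNA, which a ranking by this ratio favours. CHS1, a chitin synthase that repairs the septum, stood at a read density of 0.0686 in NRO, against 0.00785 in total RNA, a ratio of 8.74 (95% interval 5.81 to 13.7). Intervals of single models are exact binomial intervals on estimated reads and cover counting error only. FIG2, a cell wall adhesin induced in mating, had 0.0438 and 0.00640, a ratio of 6.84 (4.74 to 10.2). Both rest on few total RNA reads, 24 for CHS1 and 30 for FIG2.

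GSC2, the stress-induced subunit of glucan synthase also called FKS2, had 0.0646 in NRO and 0.0107 in total RNA, a ratio of 6.02 (4.62 to 7.99). PDR12, a transporter of weak organic acids, had 0.0677 and 0.0121, a ratio of 5.6 (4.21 to 7.58), and MDS3, a regulator of the response to external pH, had 0.0703 and 0.0132, a ratio of 5.31 (4.09 to 7.0). The NRO read densities of these 5 genes lay within a narrow band, 0.0438 to 0.0703, above the median of the long models. Their total RNA read densities lay below it. The choice of these genes by their ratio favours both.

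At the other end stood genes with much total RNA for their NRO value. TCB1, a tricalbin that tethers the endoplasmic reticulum to the plasma membrane, had 0.0402 in NRO and 0.213 in total RNA, a ratio of 0.188 (0.165 to 0.214). RPN1, the largest subunit of the proteasome base, had 0.121 and 0.547, a ratio of 0.220 (0.203 to 0.239). SPT16, a subunit of the histone chaperone FACT, had 0.0534 and 0.192, a ratio of 0.278 (0.244 to 0.316). These 3 had 538 to 1499 total RNA reads each, far more than the genes at the top, a contrast that the ranking by the ratio favours. GCN1, an activator of the kinase Gcn2, had 0.0298 and 0.0942, a ratio of 0.317 (0.283 to 0.354), and NMD2, the nonsense-mediated decay factor also called UPF2, had 0.0764 and 0.223, a ratio of 0.343 (0.307 to 0.383).

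Gene groups among the long models are described by counts and medians only, without a test. Of the 5 models listed as Ras regulators or adenylate cyclase, 4 were at 2-fold or more. Among the long models 31.7% were, and among all models 21.8%. The group median was 1.31 on the log2 scale. Values ran from 0.83 in BUD2, which acts on a Ras-like GTPase, to 2.05 in IRA2, a GTPase-activating protein for Ras. The 3 glucan and chitin synthases had a median of 2.59, from 0.35 in CHS3 to 3.13 in CHS1. Both groups had medians above that of the long models as a whole. The nuclear DNA polymerases POL1 and POL3 had 1.6 and 1.17, and the mitochondrial RNA polymerase RPO41, listed with them, had 1.18. The ABC transporters had a median of 0.78 over 10 members, from -2.16 in STE6, the exporter of the mating a-factor, which held 5 NRO reads, to 2.48 in PDR12.

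The 11 long models of vesicle coat and trafficking had a median of -0.35, and 9 of the 11 were below 0, where 31.7% of the long models and 50.2% of all models were, from -1.21 in CHC1, the clathrin heavy chain, to 0.90 in GEA1, an exchange factor for Arf. The 6 SMC proteins, which organize chromosomes, had a median of -0.45, from -1.25 in SMC3 to 0.42 in SMC5. Of the 6 largest subunits of the RNA polymerases none was at 2-fold in either direction, with a median of 0.16. Of the 7 motor proteins none was either, with a median of 0.47. Among the long models 31.7% were higher and 7.08% lower by 2-fold or more, and among all models 21.8% and 19.0%.

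After heat shock, the difference between the length classes in the ratio of NRO to total RNA was smaller. The median of log2(NRO (HS) / total RNA (HS)) was 0.35 over 320 long models, 0.10 over 650 models of 1000 to 1500 bases and 0.22 over all 2831 models with a ratio. A ratio of 2-fold or more was reached by 63 long models (19.7%), where 24.4% of all models reached it, and 44 (13.8%) were 2-fold or more below 1, where 12.9% were. The counts of long models were thus near those of all models or below them. The difference from the shorter models was 0.25 on the log2 scale by medians and 0.07 with depth summed over each class.

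GSC2 was again high after heat shock, with 0.0407 in NRO (HS) and 0.00856 in total RNA (HS), a ratio of 4.75 (3.17 to 7.26). NEW1, a translation factor of the ABC family, had 0.0457 and 0.0107, a ratio of 4.27 (2.67 to 7.02), where its ratio in log growth had been 1.54 (1.28 to 1.86). TSC11, a subunit of TOR complex 2, had 0.0388 and 0.0114, a ratio of 3.42 (2.18 to 5.45). The lowest ratios were 0.374 (0.225 to 0.598) in ADP1, an ABC transporter, 0.422 (0.366 to 0.485) in RPN1 and 0.446 (0.335 to 0.590) in GDB1, the glycogen debranching enzyme. RPN1 was thus among the lowest in both conditions, although its ratio was higher after heat shock than in log growth.

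**Figure D3:**
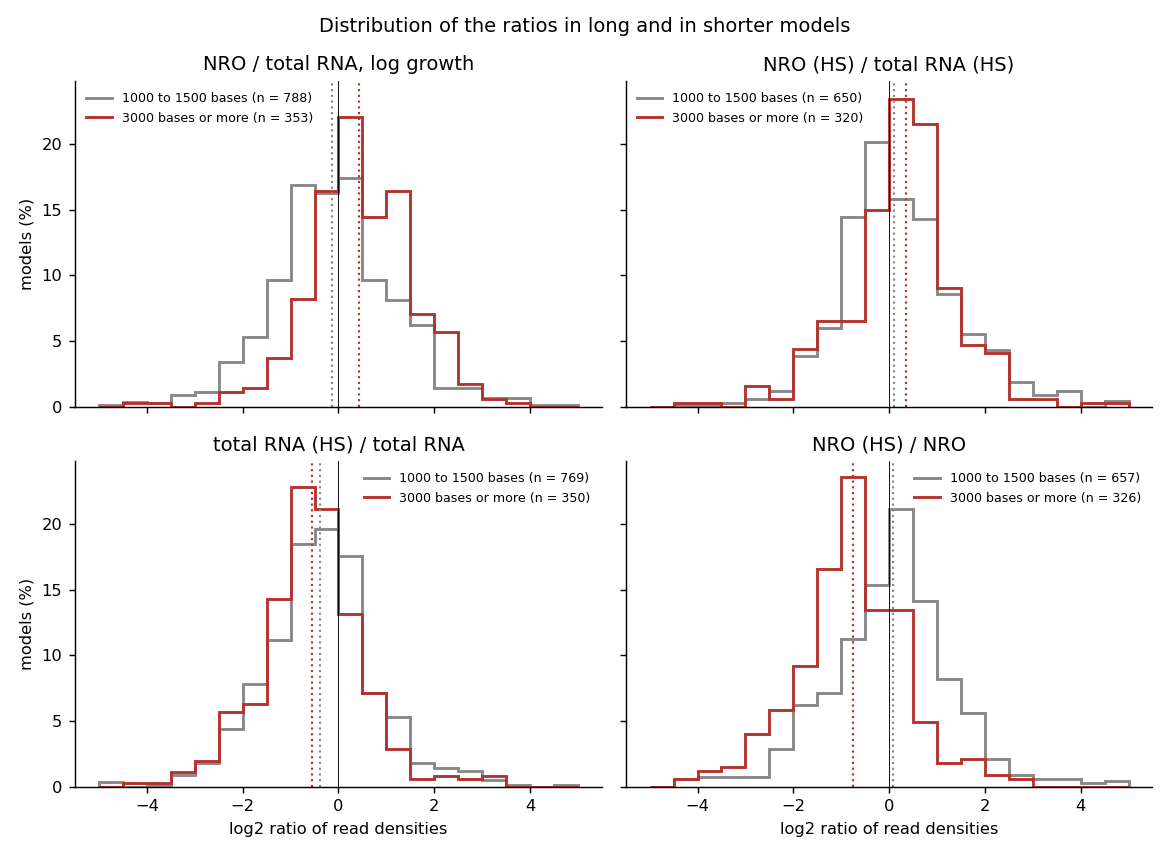
Share of models (%) in steps of 0.5 of the log2 ratio for the 4 ratios, long models in red and models of 1000 to 1500 bases in grey, with dotted lines at the medians and values beyond the axis placed in the outermost step. The 2 curves part most in NRO (HS) / NRO, with medians of -0.75 and 0.08, and in total RNA (HS) / total RNA the medians are -0.55 and -0.39.

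The change in NRO with heat shock was where the length classes parted most. The median of log2(NRO (HS) / NRO) was -0.75 over 326 long models, 0.08 over 657 models of 1000 to 1500 bases and -0.10 over all 2894 models with a ratio. Of the long models, 127 (39.0%) were lower by 2-fold or more, where 23.1% of all models were, and 18 (5.52%) were higher by 2-fold or more, where 16.2% were. The shorter models split evenly, with 126 lower and 124 higher by 2-fold. The medians differed by -0.83 on the log2 scale, which was described and not tested. As models at 0 in either library have no ratio, 40 of the 366 long models and 325 of the 982 shorter ones had none. The difference was -0.74 with depth summed over each class, which includes those models, -0.79 among models with 10 or more reads in both libraries, and -0.44 with a pseudocount of 0.01 and all models. Both NRO values are relative to the bases acquired in their own library, and in such bulk samples fewer active cells and less RNA per cell cannot be told apart. NRO also enters the log growth ratio, so the patterns of these 2 ratios with length share a library.

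Along the range of lengths the median NRO change was 0.29 below 500 bases, 0.17 from 500 to 1000, 0.08 from 1000 to 1500, -0.16 from 1500 to 2000 and -0.43 from 2000 to 3000. Within the long models it was -0.64, -0.89 and -0.80 in the classes from 3000, 4000 and 6000 bases on. No model of 6000 bases or more was higher by 2-fold, and the maximum of these 33 models was 0.37 on the log2 scale, in DYN1.

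The lowest NRO changes were found in genes of different roles. CDC39, the scaffold of the Ccr4-Not complex also called NOT1, stood at a read density of 0.0819 in NRO, against 0.0181 in NRO (HS), a ratio of 0.221 (0.159 to 0.299). MDS3 had 0.0703 and 0.0164, a ratio of 0.234 (0.159 to 0.332). HSL1, a kinase of the morphogenesis checkpoint, had 0.0738 and 0.0178, a ratio of 0.241 (0.165 to 0.346). The intervals of these 3 ratios overlapped.

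PFK1, the alpha subunit of phosphofructokinase, had 0.25 in NRO and 0.0604 in NRO (HS), a ratio of 0.242 (0.189 to 0.305), and PDR12 had 0.0677 and 0.0168, a ratio of 0.249 (0.167 to 0.358). MDS3 and PDR12 were also among the highest NRO to total RNA ratios in log growth. NRO is the numerator of that ratio and the denominator of the NRO change. A high NRO value alone therefore favours a place at the top of the former and at the bottom of the latter. The total RNA of MDS3 and PDR12 differed little between conditions, at 0.893 (0.584 to 1.35) and 0.935 (0.590 to 1.47). PFK1 differed from its partner PFK2, whose NRO change was 0.687 (0.633 to 0.746) and whose total RNA was at 1.06 (0.982 to 1.14).

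The highest NRO changes were led by YMR196W, a gene of no known function, with 0.0194 in NRO and 0.125 in NRO (HS), a ratio of 6.42 (5.11 to 8.07). TSL1, a large subunit of the trehalose synthase complex, had 0.101 and 0.534, a ratio of 5.28 (4.75 to 5.85). PYC1, a pyruvate carboxylase, had 0.0792 and 0.257, a ratio of 3.25 (2.85 to 3.69). All 3 were higher in total RNA as well. IRC20, a ubiquitin ligase with a helicase domain, had 0.00583 and 0.0189, a ratio of 3.24 (2.07 to 4.99), and TCB1 had 0.0402 and 0.125, a ratio of 3.11 (2.58 to 3.74), without a 2-fold change of total RNA in either.

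Total RNA was lower in most long models after heat shock, as it was over all models. The median of log2(total RNA (HS) / total RNA) was -0.55 over 350 long models, -0.39 over 769 models of 1000 to 1500 bases and -0.41 over all 3282 models with a ratio. Of the long models, 105 (30.0%) were lower by 2-fold or more, where 27.7% of all models were, and 20 (5.71%) were higher by 2-fold or more, where 10.2% were. The share of lower models was near that of all models, and the medians of long and shorter models differed by -0.17. Relative to the median of all models, 17.1% of the long models were lower and 11.7% higher by 2-fold. With depth summed over each class the difference between the classes was -0.43.

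TSL1 had the largest value among the higher ones, with 0.114 in total RNA and 1.09 in total RNA (HS), a ratio of 9.60 (8.55 to 10.8). It reached the level of YEF3 after heat shock. YMR196W had 0.0322 and 0.268, a ratio of 8.33 (6.69 to 10.5), and GDB1 had 0.0180 and 0.0846, a ratio of 4.69 (3.61 to 6.19). PYC1 had 0.107 and 0.362, a ratio of 3.38 (2.98 to 3.84).

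NCR1, the yeast relative of the human sterol transporter NPC1, had 0.00685 in total RNA and 0.0169 in total RNA (HS), a ratio of 2.46 (1.41 to 4.42) on 21 and 38 reads. Its NRO values were 0.00808 and 0.00463, on 6 reads in NRO (HS), and that ratio of 0.573 (0.203 to 1.31) spans 1. In TSL1, YMR196W, GDB1 and PYC1 the total RNA ratio was above the NRO ratio, though the intervals overlapped in YMR196W and PYC1, and both were above 3 in all but GDB1, whose NRO ratio was 2.41 (1.79 to 3.23). TPS3, the other long member of the trehalose synthase complex, had total RNA and NRO changes of 0.83 and 0.24 on the log2 scale.

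The lowest total RNA change among the long models with enough reads was that of REA1, also the longest, with 0.173 in total RNA and 0.0322 in total RNA (HS), a ratio of 0.186 (0.165 to 0.209). FAS1, the beta subunit of fatty acid synthase, had 0.118 and 0.0263, a ratio of 0.223 (0.181 to 0.273). SPF1, a P-type ATPase of the endoplasmic reticulum, had 0.0474 and 0.0107, a ratio of 0.225 (0.141 to 0.346). Of these 3, FAS1 had a similar NRO ratio, 0.260 (0.219 to 0.305), while REA1 and SPF1 were at 0.557 (0.501 to 0.618) and 0.669 (0.447 to 0.970).

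KAP123, the importin of ribosomal proteins, had 0.0413 in total RNA and 0.00981 in total RNA (HS), a ratio of 0.238 (0.142 to 0.381), and NEW1 had 0.0438 and 0.0107, a ratio of 0.244 (0.154 to 0.373). KAP123 held 3 reads in NRO (HS) against 265 in NRO, a ratio of 0.0801 (0.0153 to 0.220), and NEW1 had an NRO ratio of 0.679 (0.516 to 0.879). The intervals of the total RNA ratios of KAP123 and NEW1 overlapped and those of their NRO ratios did not.

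**Figure D4:**
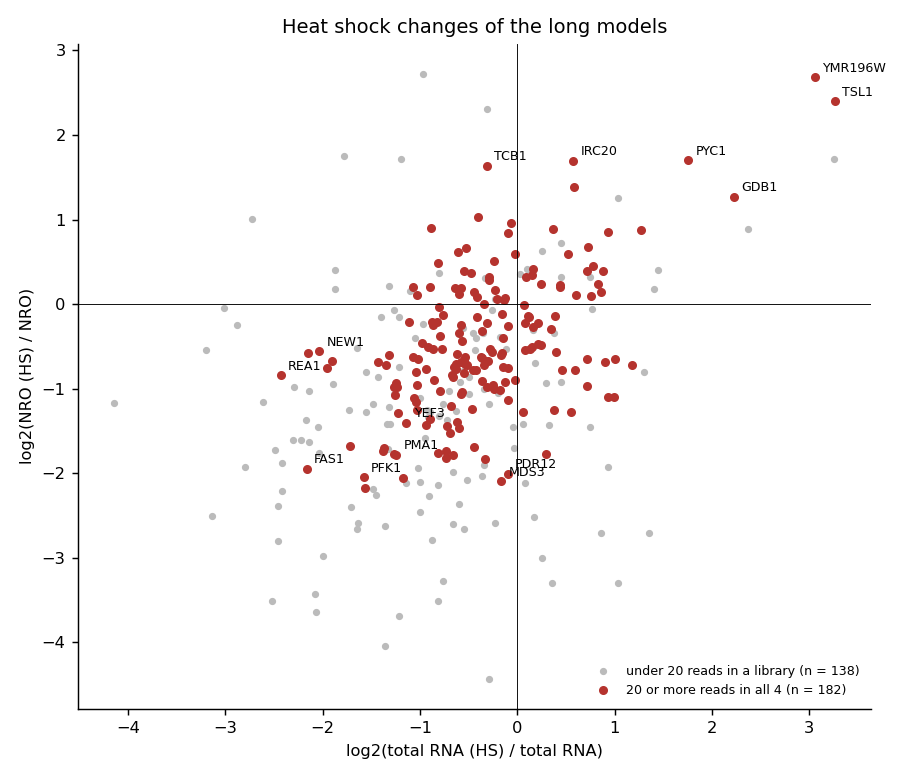
The log2 change of total RNA (x axis) and of NRO (y axis) with heat shock for the 320 long models above 0 in all 4 libraries, those with 20 or more reads in every library in red (182) and the others in grey (138). Most points lie at the lower left, and TSL1, YMR196W, GDB1 and PYC1 stand apart at the upper right.

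Both changes were below 0 in 202 of the 320 long models above 0 in all 4 libraries (63.1%), in 236 of 635 models of 1000 to 1500 bases (37.2%) and in 1201 of all 2781 such models (43.2%). Both were above 0 in 35 long models (10.9%), against 22.2% of all such models. In 45 long models (14.1%) NRO was lower and total RNA higher, near the 11.5% of all. In 38 (11.9%) NRO was higher and total RNA lower, against 23.2% of all. The last pattern was found in 172 (27.1%) of the shorter models. The Pearson r of both changes was 0.39 over the 320 long models and 0.37 over the 635 shorter ones, across genes.

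The gene groups are set beside the long models as a whole, of which 74.0% were below 0 in total RNA and 76.1% in NRO after heat shock, and beside all models, of which 65.8% and 54.0% were. Lower by 2-fold or more were 30.0% of the long models in total RNA and 39.0% in NRO, and 27.7% and 23.1% of all models. All 11 long models of ribosome biogenesis were below 0 in both changes, with medians of -1.23 in total RNA and -1.01 in NRO, and 7 were lower by 2-fold or more in total RNA and 6 in NRO. RRP12 (-2.61), a factor for export of the ribosomal subunits that held 6 reads in total RNA (HS), was lowest in total RNA, and UTP22 (-0.24), a subunit of the small subunit processome, was nearest to 0. In NRO they ran from -2.79 in URB1, on 6 reads in NRO (HS), to -0.28 in URB2, both factors of large subunit assembly. All 4 fatty acid synthesis models were lower by 2-fold or more in total RNA, with -2.17 in FAS1, -1.43 in FAS2, -1.24 in ACC1, the acetyl-CoA carboxylase, and -1.21 in its mitochondrial counterpart HFA1.

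Of the 7 models of translation and its control, 6 were lower by 2-fold or more in total RNA, against 30.0% of the long models and 27.7% of all, among them the tRNA synthetases CDC60 (-1.48), ILS1 (-1.35) and VAS1 (-1.23). The other, GCN2, the kinase that senses uncharged tRNA, held 1 read in total RNA and 2 in total RNA (HS), too few for a direction, with an interval of 0.142 to 161 for its ratio. All 6 karyopherins, which carry proteins and RNA through the nuclear pore, were below 0 in total RNA, 4 of them by 2-fold or more, and the 4 with an NRO ratio were lower by 2-fold or more, from -3.64 in KAP123, on 3 reads, to -1.28 in NMD5. The 12 nuclear pore models were also all below 0 in total RNA, with a median of -0.84, from -3.20 in POM152, on 2 reads in total RNA (HS), to -0.26 in NUP157, and 5 were lower by 2-fold or more. In NRO the nuclear pore models had a median of -0.57 over 11 members, less low than that of the long models as a whole, and all 11 had an NRO to total RNA ratio above 1 after heat shock, where 64.7% of the long models and 58.2% of all models did. The 7 Swi2/Snf2 type ATPases (-0.88) and the 6 RNA polymerase subunits (-0.86) had total RNA medians as low as or lower than that of the nuclear pore. The DNA polymerases POL1 and POL3 were at -1.65 and -0.82 in total RNA, and the mitochondrial RNA polymerase RPO41 at -1.33.

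Other groups had a lower median in NRO than in total RNA. The ABC transporters had medians of -0.41 in total RNA and -1.21 in NRO, and 6 of 10 were lower by 2-fold or more in NRO, against 39.0% of the long models and 23.1% of all. They ran from -4.05 in YBT1, on 1 read in NRO (HS), to 2.72 in STE6, on 5 reads in each NRO library. The models listed as Ras regulators or adenylate cyclase had a median of -0.55 in total RNA over 5 members. In NRO it was -1.83 over the 4 with an NRO ratio. IRA2 and CYR1, the adenylate cyclase, had a total RNA change above 0, 0.55 and 0.59, beside an NRO change of -1.28 and -0.78.

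The P-type ATPases had a median total RNA change of -0.01, from -2.15 in SPF1 to 0.88 in PMA2, the minor proton pump, and a median NRO change of -0.58. The sequence of PMA2 is close to that of PMA1, so its value may be uncertain, which was not tested. The 6 largest RNA polymerase subunits had medians of -0.86 in total RNA and -0.14 in NRO, with RPA190 (-1.26) of polymerase I lowest in total RNA and RPO31 (-2.12) of polymerase III lowest in NRO. The 7 motor proteins had a median NRO change of -0.22, from -1.42 in MYO1 to 1.38 in MYO3. None of the 11 listed heat shock proteins and nucleotide exchange factors was a long model.

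**Figure D5:**
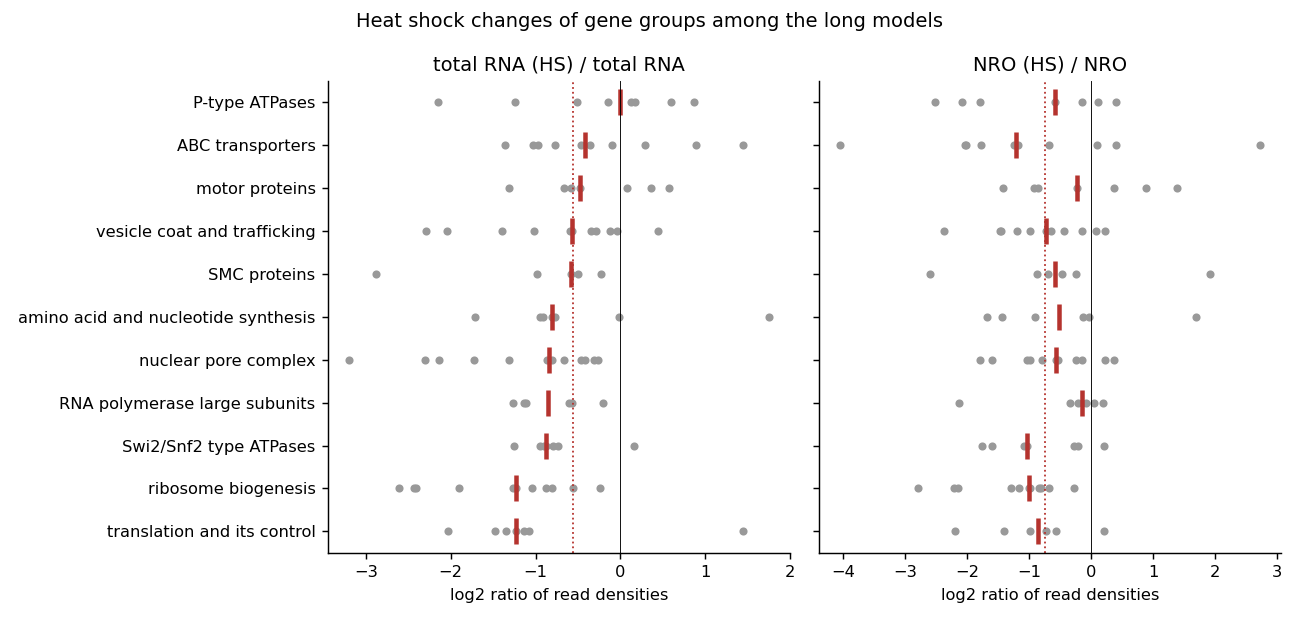
The log2 changes of total RNA (left) and NRO (right) for 11 gene groups in which 5 or more long models had an NRO ratio, 1 grey point per model, a red bar at the group median and a dotted line at the median of all long models. Translation and ribosome biogenesis have the lowest medians in total RNA, both -1.23, and ABC transporters the lowest in NRO, -1.21.

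The elements shown at the start were searched for in the 500 bases upstream of the start codon, on both strands, in the 4257 models with a coding sequence matched in R64. A stress response element was held by 124 long models (33.9%), by 33.4% of the models of 1000 to 1500 bases and by 34.3% of all. Among the 20 long models with total RNA higher by 2-fold or more it was held by 10 (50.0%), and among all such models, of any length, by 53.9%. The heat shock element had a match upstream of 1 long model, TSL1 (0.273%), against 1.53% of the models of 1000 to 1500 bases and 1.46% of all. PAC was held by 12 of the 105 long models with total RNA lower by 2-fold or more (11.4%), by 4.0% of the 225 long models with neither change and by 5.43% of all models. RRPE was held by 33 of the 105 (31.4%), by 18.7% of the 225 and by 22.2% of all. Among all models with total RNA lower by 2-fold or more, of any length, 7.73% held PAC and 31.9% held RRPE. The RRPE share of the lower long models was thus near that of lower models of any length. These shares are descriptions without a test, and the same bases can match RRPE on both strands.

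The limit of 3000 bases is a convention, and the models next to it differed widely. Just inside were OAF3 (3005 bases), with read densities of 0.000557 in NRO, 0.000880 in NRO (HS) and 0 in both total RNA libraries, MET10 (3010 bases), with 0.00627 in NRO and 0.00594 in total RNA, and UBA1 (3012 bases), with 0.0943 and 0.140. Just outside were FHL1 (2999 bases), with 0.0610 in NRO and 0.0544 in total RNA, SEA4 (2999 bases), with 0.0142 and 0.00150, and UFD2 (2997 bases), with 0.0277 and 0.0157. Their log2 NRO changes were 0.66, 0.62 and 0.45 inside and, for FHL1 and UFD2, -0.11 and -2.16 outside, while SEA4 was at 0 in NRO (HS). The read densities of OAF3 are too low to give its change a direction. UFD2 was also low in NRO (HS), at 0.00617.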

How the data were processed

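Per the paper's methods, reads were placed on sacCer2 by the authors with Maq and filtered at a mapping quality of 30. The 3 libraries of each group were merged, and the sense depth was summed over transcript models without a same-strand overlap. Selected RNA was fragmented after selection, so that a labelled RNA gives reads along its whole length. What was deposited is signal, a coverage that the authors divided by the bases acquired: read density is the summed depth over the mappable nonintronic bases. A total of 20 other columns of depth and density, 5 per pooled library, and the 3′ end NRO library were not analysed here.

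Reads were estimated as depth divided by the read length that fits low depths (36 bases, 38 for total RNA). Of the models with a summed depth below 2000 bases, 74.7% to 81.7% then held an exact multiple of that length. The paper's methods give a length of 36 bases for every library, but at 36 bases 2.16% of the low total RNA depths were exact multiples, and the total RNA reads would come to 943943. The paper's own count of unique total RNA reads outside rRNA is nearer to that than to the 894262 used here. This conflict was not resolved. Ratios were taken for models above 0 in both libraries, and 2-fold was the limit for counts. Intervals are exact binomial 95% intervals on estimated reads. The steps were tested on simulated data. With 1 pooled value per group, no test across samples was made.

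The models named are those with the 5 highest and lowest ratios in log growth, the 3 highest and lowest after heat shock, and the 5 largest changes each way, all with 20 or more reads in both libraries and 90% mappable bases. The 5 longest, the 5 of highest NRO read density, the 3 on each side of the limit and the extremes of gene lists were added, and further list members were named after their values were seen. Members and lists were chosen with earlier results of these data known, and the upstream elements and the alternative without the 5 models of highest NRO read density after the values were seen. Names and sequences came from RefSeq R64, matched by systematic name, and R64 coordinates were not mixed with those of sacCer2. A gene list was left out and is not reported here. Alternatives changed the length limit, the comparison models, the filter, a pseudocount, the scaling and the fold limit. Tools were Python (3.11.15), scipy (1.17.1), matplotlib (3.10.9), pandas (2.3.3) and numpy (2.4.6).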

Additional observations from a re-analysis of the deposited data

Results flagged for a closer look

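In 3 of the long models named by rule the ratio of NRO to total RNA lay on opposite sides of 1 in log growth and after heat shock, with counting intervals that did not reach 1 in either condition. The ratio of REA1 was 0.722 (0.686 to 0.759) in log growth and 2.16 (1.86 to 2.52) after heat shock. The ratio of SPF1 was 0.725 (0.595 to 0.887) and 2.15 (1.23 to 3.80). The ratio of PFK2 went the other way, from 1.37 (1.3 to 1.45) to 0.890 (0.807 to 0.980). Of all 320 long models with both ratios, 13 met the same condition, 7 from below to above 1 and 6 from above to below. The count was not made over all models, and more reads give narrower intervals, so it is not a trait of long models. The difference between conditions was not tested, since each group has 1 pooled value. REA1 and SPF1 were also among the 5 lowest total RNA changes, and their low total RNA (HS) values enter both statements.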

How the results depend on the processing

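Of 168 alternative values, 136 stayed within the limits set for the same result, 32 moved and no median or difference changed sign. No paired analysis was possible because the values are pooled over replicates and carry no replicate number, and leaving out a replicate was not possible for the same reason. With a pseudocount of 0.01 and models at 0 included, the medians of the long models were 0.20 for the log growth ratio, 0.0786 for the heat shock ratio, -0.25 for the total RNA change and -0.45 for the NRO change. The differences from the shorter models were then 0.21 for the log growth ratio, 0.0786 for the heat shock ratio and -0.44 for the NRO change. The shares higher and lower by 2-fold were 10.9% and 2.19% for the log growth ratio, 5.46% and 1.91% for the heat shock ratio, 1.37% and 8.20% for the total RNA change, and 1.37% and 13.1% for the NRO change. A pseudocount draws low densities towards a ratio of 1 by construction. With a limit of 4000 bases, 3.57% were 2-fold lower in the log growth ratio, 3.57% higher in the total RNA change and 2.29% higher in the NRO change. With 10 or more reads in each library, 6.19% were lower in the heat shock ratio and 3.45% higher in the total RNA change, and the median NRO change was -0.60. Centred on the median of all models, the medians were 0.13 for the heat shock ratio and -0.15 for the total RNA change, with 11.7% higher and 17.1% lower in the latter. With 1.5-fold in place of 2-fold, 13.6% were lower in the log growth ratio, 37.2% higher in the heat shock ratio, 11.7% higher and 47.7% lower in the total RNA change, and 10.1% higher in the NRO change. Within quartiles of mean density, the difference in the heat shock ratio was 0.0795. Against all models under 3000 bases, the difference in the NRO change was -0.72. Where no construction explains a move, the cause was not tested. Leaving out the 5 models of highest NRO read density moved none of the medians and shares. Depth limits the results most in NRO (HS), where a long model held a median of 23 reads.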
